A study of Mus musculus with 4 samples.

Results

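The chemokine ligands and chemokine receptors of the early postnatal mouse mammary gland were examined in Mt1-mmp(-/-) mice and their Mt1-mmp(+/+) littermates. Members were taken by symbol, as all genes beginning Ccl, Cxcl, Ccr or Cxcr followed by a number, without the Ccl21 genes, together with Cx3cl1, Cx3cr1, Xcl1 and the atypical receptor genes Ackr1 to Ackr4. A single-gene probe set was listed for 50 of these genes out of 17097 genes, comprising 33 ligands and 17 receptors. The knockout group consisted of 2 intact inguinal mammary glands of Mt1-mmp(-/-) mice at postnatal day 10, each on its own Affymetrix array. The wild-type group consisted of 2 glands of Mt1-mmp(+/+) littermates of the same age. All mice were on an outbred Swiss Black background, and no treatment was given in the labels. The knockout was global, so the protease was missing from leukocytes, vessels, epithelium and fat alike. The gland was homogenised whole.

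Chemokines are small secreted proteins that guide migrating cells, mostly leukocytes, along gradients held on the sugar chains of the tissue. They are named by the spacing of their first cysteines (CC, CXC or CX3C) and act through G protein-coupled receptors named after the ligand class. Atypical chemokine receptors, the Ackr proteins, bind the same ligands without G protein signalling and can remove them from the tissue. In the mammary gland, macrophages and eosinophils gather around growing ducts, and eosinophils are drawn there by Ccl11. Mt1-mmp, listed on the array as Mmp14, is a membrane-bound metalloproteinase that degrades collagen and activates the gelatinase Mmp2, and metalloproteinases also trim several chemokines.

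The arrays had medians between 4.92 and 4.98 on the deposited log2 scale, and their number limits the precision. The brighter Mmp14 probe set read 5.83 and 5.68 in the knockout arrays and 8.92 and 8.73 in the wild-type arrays. The sources used here do not say whether the deletion covers this probe set. Adipocyte and luminal epithelial markers were present, with 6 of 6 adipocyte and 9 of 9 luminal genes on the array above the brightness limit of 4.94, which is the median over all probe sets. The 2 knockout arrays stood apart in tissue content. Relative to the mean of the wild-type arrays, the median of the skeletal muscle markers was 5.61 in knockout replicate 2, and that of the epidermis and hair follicle markers was 3.27 in knockout replicate 1. Among these markers, Myh4 of muscle and Lor of epidermis were above the limit only through their knockout arrays. The wild-type arrays differed in the same lists by less, with replicate 2 above replicate 1 by 2.31 for muscle and 1.87 for epidermis and hair follicle. The 2 knockout arrays correlated at r = 0.925 and the 2 wild-type arrays at r = 0.992 across genes, which are not independent replicates.

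The members whose arrays separated most by genotype were CC ligands that attract monocytes and other leukocytes, which read lower in both knockout arrays, the brightest probe set of Cxcl12, which read higher in both, and the atypical Cxcl12 receptor Ackr3, which read lower in both. A second bright Cxcl12 probe set overlapped between the genotypes. None of these differences passed the test. Of the 50 genes, 27 had a mean over the 4 arrays at or above the brightness limit and were tested. In limma with Benjamini-Hochberg adjustment over all 11078 genes tested, 0 members were called higher and 0 lower at an adjusted p under 0.05. The background was the same, at 0% of all genes in each direction. At an unadjusted limma p under 0.05, 2 of the 27 tested members were higher, against 9.69% of all genes. At that threshold 6 of the 27 were lower, against 12.1% of all genes. The smallest adjusted p among members was 0.102, for Ackr3, and among all genes 0.0738. An exact permutation test of 2 arrays against 2 cannot give a p below 0.333, so none is reported for single genes.

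Both knockout arrays lay below both wild-type arrays for 12 of the 27 tested members (44.4%), where 32.5% of all tested genes did. Both lay above for 2 of 27 (7.41%), where 26.3% of all tested genes did. Only genes bright enough in the mean entered these counts, so they do not describe the whole family. Ccl7 and Cxcl15 passed the limit through their wild-type arrays, and Cxcl17 through its knockout arrays. Of the other 24 tested members 11 were lower and 2 higher without overlap. Among those lower, Cxcl16 and Ccl25 were separated by only 0.0023 and 0.04. Without overlap and at least 2-fold apart, 3 of the 27 tested members were lower (Ccl5, Ccl8 and Ccl12), against 2.12% of all genes. In the other direction 1 of the 27 was higher (Cxcl12), against 1.21%. The median difference, knockout minus wild type, was -0.11 for the 22 tested ligands and -0.17 for the 5 tested receptors, beside -0.02 for all tested genes. Among the 14 tested CC ligands the median was -0.45. With 3 arrays the background moved as well as the members. The count of 12 lower became 20 without knockout replicate 2, where 43.7% of all tested genes were lower. The count of 2 higher became 8 without knockout replicate 1, where 38.7% of all tested genes were higher, and 4 without wild-type replicate 1 or 2, where 32.0% and 32.4% were. The knockout replicates had ligand medians of -0.20 and -0.08 from the wild-type mean.

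**Figure D1:**
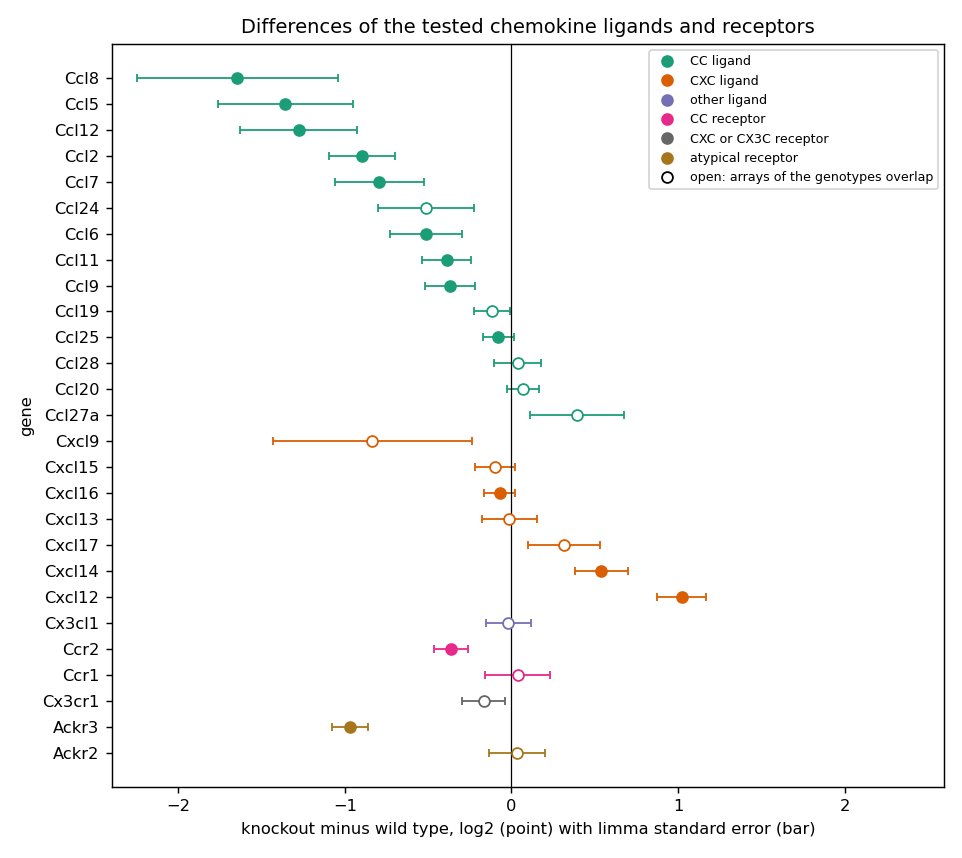
Knockout minus wild-type difference of each of the 27 tested members on the log2 scale (points) with the limma standard error (bars), grouped by role. Filled points mark members whose arrays did not overlap between the genotypes. Ccl8, Ccl5 and Ccl12 lie farthest to the left and Cxcl12 farthest to the right.

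The monocyte attractants Ccl2, Ccl8 and Ccl12 each had both knockout arrays below both wild-type arrays, and the median of their differences was -1.28. Ccl7 did so too, but it was tested only through its wild-type arrays. With Ccl7 included the median was -1.09, or -0.72 without wild-type replicate 2. These genes lie side by side on chromosome 11 with Ccl11 and Ccl1. Ccl2, Ccl7 and Ccl12 bind Ccr2, the receptor that brings monocytes from the blood, whereas mouse Ccl8 acts on Ccr8. To show the regulatory sequence of a neighbouring pair that read lower together, the 250 bases before the annotated starts of Ccl12 (chr11:82101595-82101844, plus strand) and Ccl8 (chr11:82114935-82115184, plus strand) are given from RefSeq, build GRCm38.p6. Capitals would mark a loose form of the NF-kB recognition sequence (GGG, any 5 bases, CC) or a form of the interferon response element (GAAA, any 2 bases, GAAA), on either strand. Neither window held them.
Ccl12: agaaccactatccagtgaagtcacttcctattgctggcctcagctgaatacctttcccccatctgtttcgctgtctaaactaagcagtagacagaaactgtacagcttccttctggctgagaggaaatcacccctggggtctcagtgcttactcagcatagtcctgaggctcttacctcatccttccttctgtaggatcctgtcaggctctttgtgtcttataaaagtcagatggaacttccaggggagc
Ccl8: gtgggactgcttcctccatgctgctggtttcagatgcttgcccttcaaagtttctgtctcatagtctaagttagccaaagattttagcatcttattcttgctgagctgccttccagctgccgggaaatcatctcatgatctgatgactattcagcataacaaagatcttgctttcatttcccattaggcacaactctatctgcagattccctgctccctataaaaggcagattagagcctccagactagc

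Ccl2 read 5.87 and 5.81 in the knockout arrays and 6.49 and 6.99 in the wild-type arrays. The knockout arrays were close to each other and lay 0.62 below the nearer wild-type array. The difference was -0.90 ± 0.20 (SE, n = 2 per group), or 1.86-fold, with adjusted p = 0.149. Ccl12 read 5.09 and 5.13 in the knockout and 5.91 and 6.87 in the wild type (-1.28 ± 0.35, adjusted p = 0.178). Here the wild-type arrays were 0.95 apart and the knockout arrays 0.04, and the knockout values sat near the brightness limit, where RMA compresses differences. Ccl7 read 4.97 and 4.68 in the knockout and 5.29 and 5.94 in the wild type (-0.79 ± 0.27, adjusted p = 0.216). Ccl8, in mice a product of tissue macrophages among other cells, read 5.31 and 6.75 in the knockout and 7.24 and 8.11 in the wild type. Knockout replicate 1 was the lowest array for Ccl8 by a wide margin, but knockout replicate 2 also lay 0.50 below the nearer wild-type array. The Ccl8 difference of -1.65 ± 0.60 was 3.13-fold (adjusted p = 0.235), and it was -0.93 without knockout replicate 1. Without knockout replicate 2 it was -2.37. That fit takes the spread of the single knockout array from the wild-type arrays.

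Wild-type replicate 2 was the highest array for all 4 of these genes, by a median of 0.75 over wild-type replicate 1. Without it the differences were -0.65 for Ccl2, -0.80 for Ccl12, -0.47 for Ccl7 and -1.22 for Ccl8. In whole tissue, fewer cells of a type and less RNA per cell cannot be told apart. Macrophage markers differed beside these ligands. All 13 listed macrophage genes had a mean above the brightness limit, Fcgr1 only through its wild-type arrays. In both knockout arrays 6 (46.2%) lay lower, where 32.5% of all tested genes did, and 2 (15.4%) higher, where 26.3% did. Without Fcgr1 it was 5 lower and 2 higher. The median difference of -0.32 rested on single arrays, since it was -0.09 without knockout replicate 1 and -0.20 without wild-type replicate 2. Their summed level, taken off the log2 scale, was 4900 and 5540 in the knockout arrays and 5690 and 6960 in the wild-type arrays, while that of the 4 ligands was 163 and 225 in the knockout arrays and 341 and 580 in the wild-type arrays. The macrophage genes with the smallest p were Lyve1 (0.41), shared with lymphatic endothelium, and Cd68 (-0.78), Fcgr1 (-0.91, dim in the knockout arrays) and Mrc1 (-0.38). Csf1r, the receptor on which macrophages depend, read 7.68 and 8.02 in the knockout and 8.01 and 8.17 in the wild type, and the genotypes overlapped. The part of macrophage content in the ligand differences was not tested.

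Ligands of Ccr1 showed the same order of arrays. Ccl5, a T cell and macrophage product that attracts memory T cells and monocytes, read 5.26 and 4.91 in the knockout arrays and 5.92 and 6.97 in the wild-type arrays. Its wild-type arrays were 1.05 apart, and the difference of -1.36 ± 0.41 (2.56-fold, adjusted p = 0.193) was -0.83 without wild-type replicate 2. Ccl6, a myeloid chemokine known from rodents, read 9.58 and 9.91 in the knockout and 10.03 and 10.48 in the wild type (-0.51 ± 0.22, adjusted p = 0.278). Ccl9, also a rodent myeloid chemokine, read 9.09 and 9.10 in the knockout and 9.30 and 9.63 in the wild type (-0.37 ± 0.15, adjusted p = 0.262). Its other probe set read 7.33 and 7.19 in the knockout and 7.62 and 7.99 in the wild type, again without overlap (-0.55). Without wild-type replicate 2 the differences of Ccl6 and Ccl9 were -0.29 and -0.20. Ccl3 and Ccl4, the inflammatory macrophage proteins of the same chromosome 11 group, were below the brightness limit.

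Eosinophil attractants were represented by Ccl11 and Ccl24. Ccl11, or eotaxin, which draws eosinophils into tissue, read 8.74 and 9.05 in the knockout arrays and 9.23 and 9.35 in the wild-type arrays. Both knockout arrays were lower, by 0.17 at the nearest, and the difference was -0.39 ± 0.15 (adjusted p = 0.246) or -0.24 without knockout replicate 1. Ccl24, a second eotaxin made largely by macrophages, read 7.47 and 6.86 in the knockout and 7.44 and 7.91 in the wild type. Its arrays overlapped between the genotypes, since knockout replicate 1 lay just above wild-type replicate 1, and the difference was -0.51 ± 0.29 (adjusted p = 0.371). Their receptor gene Ccr3 was below the brightness limit, at 3.92 and 4.10 in the knockout and 4.03 and 4.04 in the wild type. Of 6 eosinophil markers, Rnase2a (-3.27) was above the limit through its wild-type arrays and the other 5 were below it, so eosinophil content could not be followed by those genes.

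**Figure D2:**
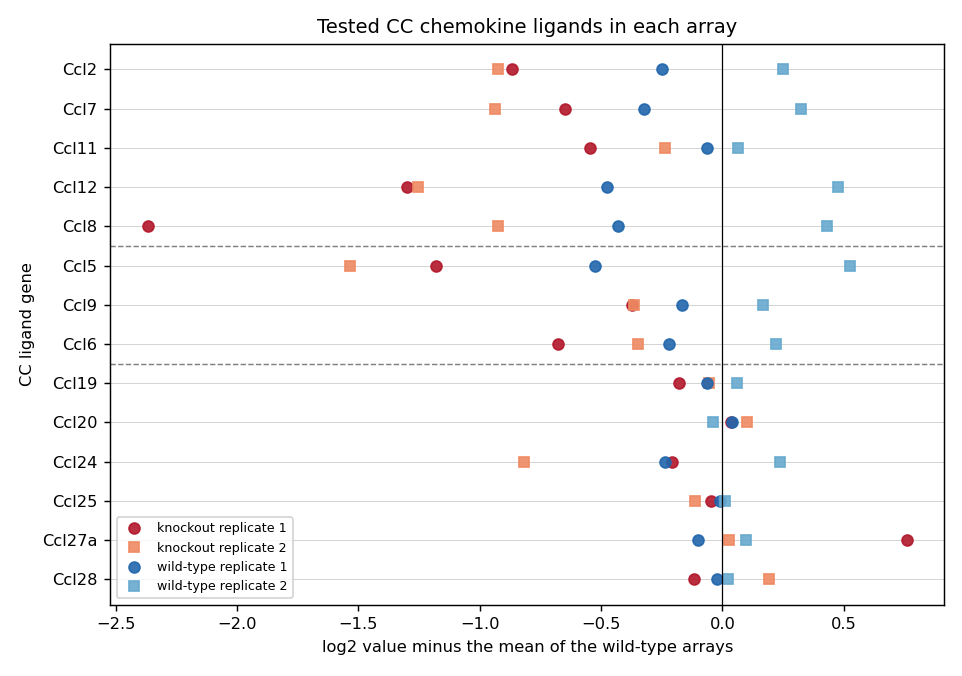
Deposited log2 value minus the wild-type mean for the 14 tested CC ligands in each of the 4 arrays. Dashed lines divide the 5 tested genes of the Ccl2 to Ccl1 group, the 3 tested genes of the Ccl5 to Ccl4 group and the other ligands, and in the first 8 rows both knockout arrays lie left of both wild-type arrays.

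In RefSeq order, 6 family genes of chromosome 11 formed one group (Ccl2, Ccl7, Ccl11, Ccl12, Ccl8 and Ccl1) and 5 formed another (Ccl5, Ccl9, Ccl6, Ccl3 and Ccl4), with at most 5 other protein-coding genes between neighbours. Of the first group Ccl2, Ccl11, Ccl12 and Ccl8 were tested and lower in both knockout arrays, as was Ccl7, which was tested only through its wild-type arrays. Of the second group 3 were tested and 3 were lower in both. The background for this order was 32.5% of tested genes. Wild-type replicate 2 lay above wild-type replicate 1 for 13 of the 14 tested CC ligands (92.9%), against 49.7% of all tested genes, so the spread within the wild type ran along the same genes. Neighbours in these groups are paralogs of similar sequence, and signal shared between their probe sets was not tested.

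The remaining tested CC ligands differed little, apart from Ccl27a. Ccl19, a lymph node chemokine, Ccl20, which draws Ccr6-bearing cells, and the mucosal chemokine Ccl28 overlapped between the genotypes. Ccl25, the thymus and gut chemokine, read 4.98 and 4.92 in the knockout and 5.02 and 5.04 in the wild type, lower in both knockout arrays by only 0.04 at the nearest (-0.08 ± 0.09, adjusted p = 0.639). The skin chemokine Ccl27a, made by keratinocytes, read 6.37 and 5.64 in the knockout and 5.51 and 5.71 in the wild type. Knockout replicate 1, the array with the high epidermis and hair follicle markers, was the high array, and the part of skin in it was not tested. Ccl27a differed by 0.39 ± 0.28 (adjusted p = 0.465), by 0.03 without knockout replicate 1 and by 0.76 without knockout replicate 2. A dimmer Ccl27a probe set read 5.68 and 5.57 in the knockout and 5.02 and 4.60 in the wild type, without overlap. Tested alone in limma it differed by 0.82 ± 0.18 (adjusted p = 0.147), and another set above the limit, which overlapped, by 0.25. The Ccl27a probe sets thus differ in whether the genotypes separate. Ccl27a has a close copy, Ccl27b, so which copy the signal came from is uncertain.

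Among CXC ligands the brightest probe set of Cxcl12 read higher in both knockout arrays. Cxcl12, made by stromal cells, retains and attracts cells that carry Cxcr4, a receptor not analysed here. The probe set read 10.77 and 11.07 in the knockout arrays and 9.83 and 9.97 in the wild-type arrays. The groups were 0.80 apart at the nearest, more than the 0.31 between the knockout arrays and the 0.13 between the wild-type arrays, and the difference was 1.02 ± 0.15, or 2.03-fold (adjusted p = 0.108). A second Cxcl12 probe set read 9.04 and 9.58 in the knockout and 9.55 and 9.40 in the wild type. Here the genotypes overlapped, with a difference of -0.17 ± 0.22 and adjusted p = 0.677 when tested alone. The third probe set, at 4.31 and 4.45 in the knockout and 4.43 and 4.32 in the wild type, was below the brightness limit. The probe sets of Cxcl12 therefore disagree, and which transcript form each reads is not given. The brightest set differed by 1.17 without knockout replicate 1 and by 0.87 without knockout replicate 2. No alternative that kept the 4 arrays brought the adjusted p of Cxcl12 under 0.05. The mean of the 3 probe sets differed by 0.29.

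Ackr3, the atypical receptor that binds Cxcl12 and takes it up, read 8.97 and 9.11 in the knockout arrays and 10.07 and 9.96 in the wild-type arrays. The knockout arrays were 0.13 apart, the wild-type arrays 0.11 and the genotypes 0.85 apart at the nearest, the widest such gap of any tested member. The difference was -0.97 ± 0.11, or 1.96-fold, with adjusted p = 0.102. Its adjusted p ran from 0.0112 to 0.846 over the alternatives, with 0.0112 without knockout replicate 1 and 0.0276 without knockout replicate 2. Ackr3 is expressed by blood vessel cells among others, and blood endothelial markers had a median of -0.26 in the same arrays, or -0.12 without knockout replicate 1 and -0.43 without knockout replicate 2. Of the 8 genes 5 (62.5%) were lower in both knockout arrays, where 32.5% of all tested genes were, and 1 (12.5%) higher, where 26.3% were. Their summed level was 5550 and 6040 in the knockout and 6660 and 6470 in the wild type, and their part in the Ackr3 difference was not tested. The 250 bases before the annotated starts of Cxcl12 (chr6:117168285-117168534, plus strand) and Ackr3 (chr1:90203730-90203979, plus strand) are shown because both had wide gaps between the genotypes, Cxcl12 in its brightest probe set, with the NF-kB letters, on either strand, in capitals.
Cxcl12: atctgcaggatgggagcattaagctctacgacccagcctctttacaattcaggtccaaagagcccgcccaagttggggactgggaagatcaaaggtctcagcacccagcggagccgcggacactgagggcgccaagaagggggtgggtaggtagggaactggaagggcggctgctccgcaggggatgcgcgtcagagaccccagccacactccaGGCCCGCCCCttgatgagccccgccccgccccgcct
Ackr3: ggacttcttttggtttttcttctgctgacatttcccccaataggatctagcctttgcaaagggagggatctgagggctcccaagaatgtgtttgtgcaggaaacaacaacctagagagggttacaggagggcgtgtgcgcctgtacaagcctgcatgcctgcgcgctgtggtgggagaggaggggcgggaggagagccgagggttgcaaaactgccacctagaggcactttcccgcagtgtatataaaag

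Cxcl12 held a single match and Ackr3 none. The NF-kB letters are loose, and 45.8% of the 32851 promoter windows of this length held it on either strand, so a match carries little information.

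Cxcl14, a chemokine of epithelia and stroma, was the other member higher in both knockout arrays. Its brighter probe set read 5.98 and 6.35 in the knockout and 5.61 and 5.64 in the wild type (0.54 ± 0.16, adjusted p = 0.192). The dimmer set read 5.60 and 5.23 in the knockout and 4.41 and 4.28 in the wild type, a difference of 1.06. Its wild-type values and its mean over the 4 arrays were below the brightness limit, so this set was not tested. Both probe sets thus put the knockout arrays on top, though replicate 2 was the higher knockout array in the first and replicate 1 in the second. The brighter set differed by 0.73 without knockout replicate 1 and by 0.35 without knockout replicate 2. No alternative that kept the 4 arrays brought the adjusted p of Cxcl14 under 0.05. Luminal epithelial markers had a median of 0.94 in these arrays, or 0.40 without wild-type replicate 2. Of the 9 genes 6 (66.7%) were higher in both knockout arrays, where 26.3% of all tested genes were, among them Gata3, tested only through its knockout arrays, and wild-type replicate 2 stood 1.09 below wild-type replicate 1. Their summed level was 2500 and 2040 in the knockout and 1800 and 834 in the wild type. Basal epithelial markers had a median of 0.71, or 0.33 without knockout replicate 1. Of the 8 tested 6 (75%) were higher in both knockout arrays, among them Cdh3, tested only through its knockout arrays. Fibroblast markers had a median of -0.02, or -0.07 without Pdgfra, which was tested only through its knockout arrays. The part of these cells in the Cxcl14 difference was not tested.

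**Figure D3:**
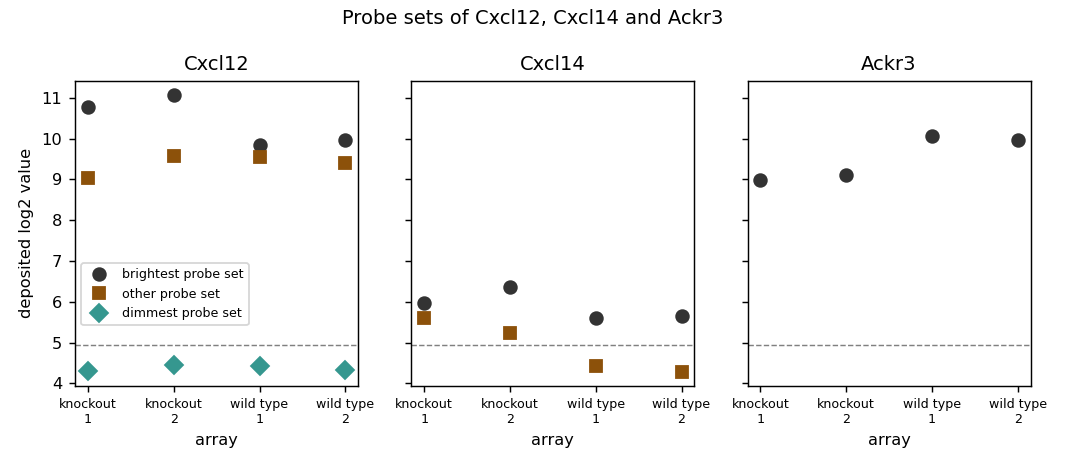
Deposited log2 values of every probe set of Cxcl12, Cxcl14 and Ackr3 in each array. The dashed line is the brightness limit of 4.94, and the brightest Cxcl12 set is higher in both knockout arrays while the next set overlaps between genotypes.

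The interferon-inducible ligands Cxcl9, Cxcl10 and Cxcl11, which attract Cxcr3-bearing T cells and natural killer cells, were highest in a single wild-type array. Cxcl9 read 6.78 and 6.91 in the knockout arrays and 6.85 and 8.51 in the wild-type arrays. Wild-type replicate 2 was 1.66 above its replicate, and the difference of -0.84 ± 0.60 (adjusted p = 0.461) was -0.01 without it. Cxcl10 read 4.44 and 4.38 in the knockout and 4.54 and 5.02 in the wild type, and was below the brightness limit, as was Cxcl11. For all 3 that array was wild-type replicate 2. Their receptor gene Cxcr3, also below the limit, read 4.48 and 4.51 in the knockout and 4.76 and 4.87 in the wild type, without overlap. Interferon response genes were read beside them. Of 9 tested genes 7 (77.8%) lay lower in both knockout arrays, where 32.5% of all tested genes did. Their median was -0.35, or -0.55 without wild-type replicate 1 and -0.21 without wild-type replicate 2, and wild-type replicate 2 was above replicate 1 by a median of 0.30. The interferon-induced genes with the smallest p were Rsad2 (-1.81), Gbp3 (-0.93), Ifit2 (-0.43) and Gbp2 (-0.96). Wild-type replicate 2 lay above replicate 1 for 7 of the 9, but not for Rsad2. That gene read 7.04 and 7.19 in the knockout and 8.98 and 8.87 in the wild type, unlike Cxcl9.

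Cxcl9 (chr5:92328080-92328329, minus strand) and Cxcl10 (chr5:92348890-92349139, minus strand) are neighbours known to be induced through NF-kB and interferon response elements. Their windows are shown for that reason, with matches to the NF-kB or interferon letters on either strand in capitals.
Cxcl9: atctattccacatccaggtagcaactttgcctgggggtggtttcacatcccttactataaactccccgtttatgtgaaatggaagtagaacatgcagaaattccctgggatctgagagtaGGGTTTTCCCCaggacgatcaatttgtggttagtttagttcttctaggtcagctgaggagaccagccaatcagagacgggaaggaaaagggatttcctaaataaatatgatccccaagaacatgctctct
Cxcl10: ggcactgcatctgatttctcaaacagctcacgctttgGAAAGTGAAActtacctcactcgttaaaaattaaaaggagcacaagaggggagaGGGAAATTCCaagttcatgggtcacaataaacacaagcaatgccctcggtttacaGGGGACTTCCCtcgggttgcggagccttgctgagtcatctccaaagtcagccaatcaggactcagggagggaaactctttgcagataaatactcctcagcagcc

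In Cxcl10 the interferon letters began 213 bases before the start, and NF-kB letters began 159, 104 and 103 bases before it, the last pair overlapping. In Cxcl9 a pair of overlapping NF-kB matches began 130 and 129 bases before the start. Of all 32851 windows 2.98% held the interferon letters, and of the 42 windows found for 38 members, 3 did, namely those of Ccl19, Cxcl10 and Cxcl14. NF-kB letters were in 59.5% of the members' windows. These matches describe the letters and show no binding.

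Of the other CXC and CX3C ligands, Cxcl13, the B cell chemokine, Cxcl15, the lung chemokine, the mucosal Cxcl17 and the membrane-bound Cx3cl1, or fractalkine, overlapped between the genotypes. Cxcl16, another membrane-bound chemokine, read 6.20 and 6.28 in the knockout and 6.35 and 6.28 in the wild type, a difference of -0.07 ± 0.10 (adjusted p = 0.683). It counted as lower without overlap through a gap of 0.0023. These 5 genes with Ccl19, Ccl20, Ccl25 and Ccl28 had differences between -0.12 and 0.32, and array values between 4.69 and 6.35. The neutrophil attractants Cxcl1, Cxcl2 and Cxcl5 were all below the brightness limit in the mean. Relative to the wild-type mean, the median of the neutrophil markers was 1.17 in the first knockout replicate and -0.33 in the second. The neutrophil marker Camp was tested only through its knockout arrays. The platelet chemokine genes Ppbp and Pf4, which belong to the CXC class but not to the symbols chosen here, differed by -0.67 and -0.11. Ppbp was tested only through its wild-type arrays.

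Few receptors were bright enough to test. Ccr2, the monocyte receptor for Ccl2, Ccl7 and Ccl12, read 5.42 and 5.43 in the knockout arrays and 5.71 and 5.86 in the wild-type arrays. The knockout arrays were 0.01 apart and the wild-type arrays 0.15, and the genotypes were 0.29 apart at the nearest (-0.36 ± 0.10, adjusted p = 0.182). A second Ccr2 probe set above the limit was lower by a small amount (-0.12), and of the 2 below it 1 was lower (-0.31) and 1 higher (0.08). Ccr1, shared by Ccl5, Ccl6 and Ccl9, read 5.92 and 5.81 in the knockout and 5.59 and 6.07 in the wild type, and the genotypes overlapped (0.04 ± 0.20, adjusted p = 0.925). Cx3cr1, the fractalkine receptor of monocytes and tissue macrophages, read 4.85 and 5.12 in the knockout and 5.12 and 5.19 in the wild type, again with overlap (-0.17 ± 0.13, adjusted p = 0.498). The scavenging receptor gene Ackr2, which removes inflammatory CC chemokines such as Ccl2 and Ccl11, read 5.95 and 6.31 in the knockout and 6.18 and 6.02 in the wild type. Its difference of 0.03 ± 0.17 (adjusted p = 0.920) was smaller than the spread within either genotype.

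The other 23 members, 11 ligands and 12 receptors, had means below the brightness limit, with array values between 3.58 and 5.02. The ligands were Ccl1, Ccl3, Ccl4, Ccl17, Ccl22, Cxcl1, Cxcl2, Cxcl5, Cxcl10, Cxcl11 and Xcl1. The receptors were Ccr3, Ccr4, Ccr6, Ccr8, Ccr9, Ccr10, Ccr1l1, Cxcr2, Cxcr3, Cxcr5, Cxcr6 and Ackr4. Their differences ran from -0.37 for Cxcl10 to 0.18 for Ccr10. Both knockout arrays were lower for 3 of them (Ccr6, Cxcl10 and Cxcr3) and higher for 2 (Ccr8 and Ccr10), and 18 overlapped. With no brightness filter, 26.6% of all 17097 genes lay lower and 23.5% higher. Those shares include the brighter genes and are not a like comparison for dim members, so nothing is read from these counts. Differences this near the background of an array are compressed by RMA, so a small value here does not show equal expression. Several of these receptors serve ligands that were well above the limit, as Ccr3 does for Ccl11 and Ccl24 and Ccr8 for Ccl8.

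Genes around the pathway were mixed. The counts of these lists are read beside the 32.5% of all tested genes that lay lower and the 26.3% that lay higher in both knockout arrays. Of 22 tested chemokine receptor signalling genes, 8 (36.4%) lay lower, near that share, and 3 (13.6%) higher. Their median difference was -0.12, or -0.05 without knockout replicate 2. The receptor kinase gene Grk5 read 6.58 and 6.54 in the knockout and 7.22 and 7.24 in the wild type (-0.67 ± 0.09, adjusted p = 0.105), Jak2 differed by -0.33, the phosphoinositide kinase adaptor gene Pik3r5 by 0.30 and the G protein regulator gene Rgs2 by 1.28. Of 12 tested genes for other chemoattractants and their receptors, 5 (41.7%) were lower and 1 (8.33%) higher in both. Fpr2, one of the 5, was tested only through its wild-type arrays. These included Cd74 (-0.85), a receptor for Mif, Mif itself (0.62), the chemerin receptor gene Cmklr1 (-0.59) and the oxysterol receptor gene Gpr183 (-0.54). Inflammatory cytokine and NF-kB target genes were 6 higher (40%) and 4 lower (26.7%) of 15 tested, among them Relb (-0.34), Il33 (-0.71), Icam1 (0.40) and Nfkbia (0.36).

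Proteases that can trim chemokines and carriers of the sugar chains that hold them went both ways. Of 8 tested proteases 3 lay higher and 3 lower in both knockout arrays (37.5% each), and Anpep, among the higher, was tested only through its knockout arrays. Mmp2, which in humans cuts Cxcl12 and Ccl7, read 10.44 and 11.57 in the knockout and 9.50 and 9.39 in the wild type (1.56 ± 0.41, adjusted p = 0.172), Mmp3 differed by 0.66, Mmp9 by -0.55 and Adam17, which sheds Cx3cl1, by -0.32. Of 9 tested carriers and chain-building genes 3 were higher (33.3%) and 5 lower (55.6%). The syndecan gene Sdc4 differed by 0.63 and the glypican gene Gpc1 by 0.91, whereas the glypican gene Gpc4 differed by -0.67 and the heparan sulfate polymerase gene Ext1 by -0.49. In these 5 lists 0 of 66 tested genes passed in limma at an adjusted p under 0.05, while an unadjusted p under 0.05 was reached by 5 with a positive difference and 7 with a negative one, where 9.69% and 12.1% of all tested genes reached it.

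Other leukocyte markers gave the setting of these values. Dendritic cell markers were lower in both knockout arrays for 4 of 5 tested genes (80.0%, against 32.5% of all tested genes), with a median of -0.39. The 4 were Cd209a (-0.39), Zbtb46 (-0.34) and the class II antigen presentation genes H2-Ab1 (-1.36) and H2-Aa (-1.30), while Itgax (0.02) overlapped. Mast cell markers went the other way, with 6 of 6 tested genes higher in both, against 26.3% of all tested genes, and a median of 0.86. Of these, Mcpt4 (1.85) and Cma1 (0.81) lie on chromosome 14, as do Mmp14 and the eosinophil marker Rnase2a. Cpa3 (0.90), Tpsb2 (0.95), Hdc (0.68) and Kit (0.45) lie on other chromosomes. The part of chromosome 14 in these values was not tested. T cell markers were 2 lower and 1 higher of 5 tested. The part of any of these cells in the chemokine differences was not tested.

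**Figure D4:**
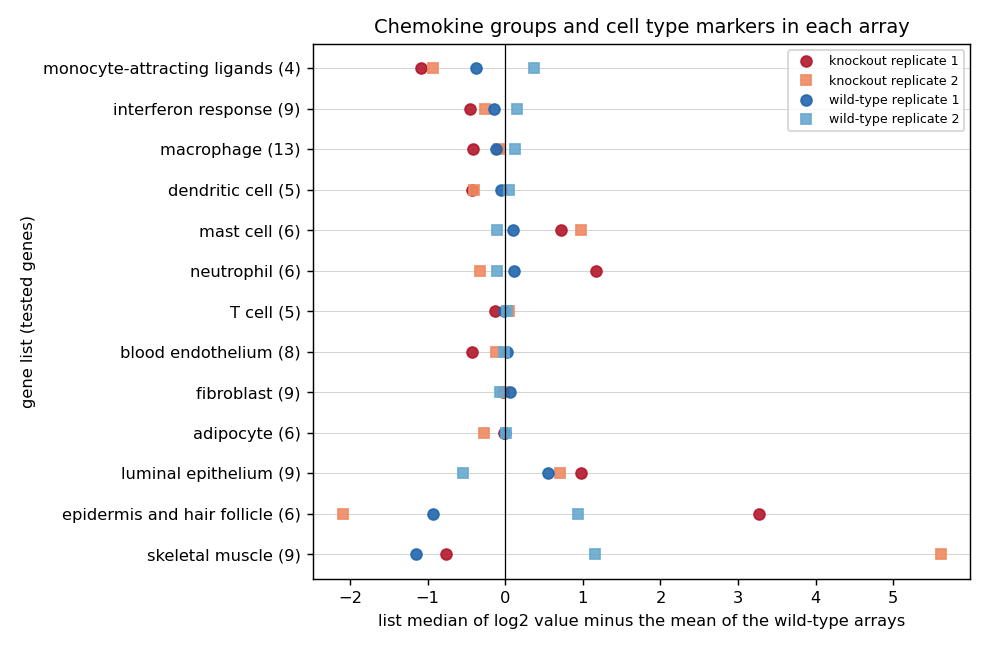
Median over the tested genes of each list of the log2 value minus the wild-type mean, in each array, with the number of tested genes in brackets. The monocyte-attracting ligands are lower in both knockout arrays, and single knockout arrays stand apart for skeletal muscle (5.61, replicate 2) and for epidermis and hair follicle (3.27, replicate 1).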

How the data were processed

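RNA of 2 knockout and 2 wild-type glands was measured on 1 array each. Per the labels' protocols, total RNA was labelled with biotin after amplification from the transcript's 3-prime end. The authors summarised the arrays with RMA in affy, per the submitters' processing notes, which give no version. The deposited values are taken as log2 values from their range (3.16 to 13.7), the scale not being stated. No detection calls were used. Of 45141 probe sets, 28898 had 1 gene in an annotation of the array, 551 several and 15692 none. Gene identifiers of 28689 matched a RefSeq table of GRCm38.p6. The brightest probe set per gene was used, and genes with a mean of at least 4.94 were tested with limma 3.58.1 in R 4.3.3 (lmFit, eBayes, no covariate, Benjamini-Hochberg at 0.05 over 11078 genes), which was also tested on simulated data. A standard error is limma's moderated one. Every member could be named, and statistics were given for members whose genotypes did not overlap, the brightest 8, those with knockout arrays over 1 apart, every Cxcl12 probe set and tested receptors, and up to 4 genes with the smallest p per other list. Ccl27a, called without knockout replicate 2, was added after its values were seen, as were marker genes and further probe sets named outside this rule. The members and lists were chosen with earlier results of these data known. The labels call the samples biological replicates. Same-numbered samples correlated at r = -0.0885 in their deviations from the group means, and the number was not taken as a pairing. Alternatives covered the brightness filter, probe set choice, scaling, variance prior, array weights, a replicate block and each array left out. Promoter windows are the 250 bases before each RefSeq start.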

Additional observations from a re-analysis of the deposited data

How the results depend on the processing

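In limma, 0 members were called under all alternatives that kept the 4 arrays, with between 1 and 8 members lower and 1 or 2 higher at an unadjusted p under 0.05. The replicate number as a block also gave 0 members and 0 of all genes called in either direction, and it changed no call. The labels share numbers without stating a pairing. Of 263 values of 20 named members over 14 alternatives, 252 kept their direction and their side of the threshold, 7 passed it and 4 turned. The values that passed were those of Ackr3, Cxcl12, Cxcl14, Ccl8 and Ccl27a with a single knockout array. Such a fit takes the spread of the knockout from the wild-type arrays, and many other genes passed in it as well. Leaving out 1 array moved the members called higher between 0 and 2 and lower between 0 and 2, and of all genes between 0 and 1455 higher and between 0 and 2725 lower. The medians then ran from -0.20 to -0.085 for ligands and from -0.30 to -0.04 for receptors, and members without overlap from 3 to 8 higher and 13 to 20 lower, where 32.0% to 43.2% of all tested genes were higher and 38.4% to 50.8% lower. The 13 lower without knockout replicate 1 and the 8 higher without it lay below those shares. With no brightness filter 15 of 50 members were lower and 4 higher without overlap, where 26.6% and 23.5% of all genes were. With the filter at the 75th percentile, which left 6 ligands and 1 receptor, 1 was higher and 4 lower. Of all genes tested there, 27.2% were higher and 38.6% lower. The medians were then -0.45 and -0.97. With all probe sets of a gene averaged, which left 18 ligands and 2 receptors, the medians were -0.42 and -0.48. Ccr1 turned to -0.02 without knockout replicate 1 and -0.20 without wild-type replicate 1, in a range of -0.20 to 0.27 with 1 array left out. Ackr2 turned to -0.15 without knockout replicate 2 and -0.05 without wild-type replicate 2, in a range of -0.15 to 0.21. The other Cxcl12 probe set, an alternative chosen after seeing the data, gave -0.17. For these the cause was not tested. Signal over background limits the 23 dim members.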
